A study of Caenorhabditis elegans with 2 samples.

Results

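Aminoacyl-tRNA synthetases are the enzymes that load each amino acid onto its transfer RNA. The genes described here are the nuclear protein-coding genes of Caenorhabditis elegans whose name is a single letter followed by ars, a hyphen and a number. The rule found 32 of 19973 protein-coding genes, of which 14 code for cytosolic enzymes, 12 for mitochondrial enzymes, and 6 (cars-1, gars-1, hars-1, kars-1, qars-1 and tars-1) were not assigned to a single compartment. Of the others, mars-1, vars-1 and wars-1 are also the only genes of their amino acid under this naming. The names in this family give the amino acid in 1-letter code, as in aars for alanine and wars for tryptophan, but the number after the hyphen does not mark the compartment. The compartments were taken from textbook knowledge and set beside RefSeq product names.

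The values are chromatin immunoprecipitation sequencing (ChIP-seq) peaks of NFYA-1, a worm A subunit of the transcription factor NF-Y. There was 1 group of 2 libraries, labelled as biological replicates, made from whole hermaphrodites at the L3 larval stage. All animals were of strain OP404, with genotype unc-119(tm4063) III; wgIs404, where wgIs404 is the integrated transgene for NFYA-1 carrying GFP and FLAG at its C-terminus, and the precipitation used an antibody to GFP. Their age is given as unknown, no untagged library was analysed here, and the worms hold many cell types, so binding in fewer cells cannot be told apart from weaker binding in each cell.

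A synthetase recognises both an amino acid and its matching transfer RNAs, and joins them with energy from ATP, which supplies the ribosome with charged transfer RNA. Mitochondria translate their own messages and import synthetases for this from the cytosol. Some amino acids have separate nuclear genes for the mitochondrial and the cytosolic enzyme, while for others 1 gene makes both forms. NF-Y is a trimer known to bind the CCAAT box, a promoter element. Many worm genes sit in operons or have the 5′ end of their transcript replaced by a spliced leader, so transcription may begin upstream of the annotated start.

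A gene was called bound when a peak summit that met the irreproducible discovery rate (IDR) threshold of the authors lay from 500 bp upstream to 200 bp downstream of its annotated start. NFYA-1 summits lay in this window at 14 of the 32 synthetase genes (43.8%), against 3122 of 19973 protein-coding genes (15.6%). The bound genes were 6 of 14 cytosolic genes (42.9%), 6 of 12 mitochondrial genes and 2 of the 6 genes not assigned to a single compartment (33.3%). The members were chosen with results of these data known and there was only 1 group, so the shares are given as a description with no test. The background covers all protein-coding genes, whether or not they are active in L3 larvae, and the part of gene activity in the difference was not tested.

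The DNA under the summits is shown first, because these sequences differ widely in base composition and in the motifs they hold. Each is read 5′ to 3′ on the strand of the synthetase gene, with coordinates on ce11 (WBcel235) and letters from the RefSeq genome. Base 51 is the summit, and each runs up to 50 bp to either side of it without entering an annotated exon. Capitals mark CCAAT or GAGAGA on either strand, so ATTGG and TCTCTC are their reverse complements. The first set holds the mitochondrial genes ears-2 (glutamate), aars-1 (alanine), sars-2 (serine) and vars-1 (valine), with yars-2 (tyrosine), which was added after its motif was seen.
ears-2 (chrIV:390469-390535, minus strand): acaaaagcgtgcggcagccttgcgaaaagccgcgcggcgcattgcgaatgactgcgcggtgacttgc
aars-1 (chrII:11464615-11464715, minus strand): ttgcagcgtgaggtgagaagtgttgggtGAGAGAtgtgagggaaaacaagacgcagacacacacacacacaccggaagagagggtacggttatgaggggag
sars-2 (chrIV:4357442-4357542, plus strand): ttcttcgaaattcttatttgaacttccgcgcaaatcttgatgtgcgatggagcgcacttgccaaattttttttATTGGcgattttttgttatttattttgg
vars-1 (chrV:8031298-8031398, plus strand): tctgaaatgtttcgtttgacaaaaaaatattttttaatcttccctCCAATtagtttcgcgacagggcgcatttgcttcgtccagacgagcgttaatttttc
yars-2 (chrIV:4712625-4712699, minus strand): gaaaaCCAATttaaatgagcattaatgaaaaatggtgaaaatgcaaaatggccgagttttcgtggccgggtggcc

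The second set holds kars-1 (lysine) and hars-1 (histidine), which were not assigned to a single compartment, and the cytosolic genes mars-1 (methionine) and sars-1 (serine).
kars-1 (chrII:7072796-7072896, minus strand): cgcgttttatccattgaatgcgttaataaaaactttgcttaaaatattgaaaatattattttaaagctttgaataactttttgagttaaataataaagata
hars-1 (chrIV:10858800-10858900, plus strand): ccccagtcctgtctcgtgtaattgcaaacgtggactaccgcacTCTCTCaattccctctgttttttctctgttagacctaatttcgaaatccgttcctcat
mars-1 (chrIV:11635766-11635866, minus strand): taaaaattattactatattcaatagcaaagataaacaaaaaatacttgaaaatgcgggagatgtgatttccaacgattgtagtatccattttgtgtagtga
sars-1 (chrIV:10003516-10003616, plus strand): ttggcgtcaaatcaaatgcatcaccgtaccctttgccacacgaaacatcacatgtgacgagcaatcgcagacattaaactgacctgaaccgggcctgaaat

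The summit of ears-2 lay in sequence of 60.4% G and C within 50 bp of it, and that of kars-1 in sequence of 20.8%, the highest and the lowest of the 14. The median over the bound synthetase genes was 46.5%, equal to that over all bound protein-coding genes. The range was 34.7% to 60.4% at the mitochondrial and 27.7% to 47.5% at the cytosolic genes.

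The strongest summits were at ears-2 and nars-1, the cytosolic asparaginyl-tRNA synthetase gene. The signal of ears-2 was 237.5, rank 1427 of the 6932 IDR peaks, where rank 1 is the strongest. The summit of nars-1 followed at 237.2 and rank 1432. Signal is the authors' own value on a scale that the files do not state, and in the IDR list it ran from 53.5 to 12400.7. These leading synthetase genes therefore stood well below the top of the list: 1426 IDR peaks (20.6%) and 875 of the 3122 bound genes (28.0%) ranked above ears-2.

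The alanine pair stood close together, with cytosolic aars-2 at signal 153.3 (rank 2657) and mitochondrial aars-1 at 146.8 (rank 2794). Between them came kars-1 at 152.8 (rank 2668), whose human counterpart is known to make both the cytosolic and the mitochondrial enzyme. Mitochondrial sars-2 had 141.1 (rank 2916). The next signals were 137.4 at mars-1, 136.6 at vars-1, 113.8 at sars-1, 95.8 at hars-1 and 92.8 at dars-1, the cytosolic aspartyl enzyme. The weakest were the cytosolic leucyl gene lars-1 with 71.8 (rank 5462), the mitochondrial prolyl gene pars-2 with 61.2 (rank 6215) and yars-2 with 61.1 (rank 6218).

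The median rank of the 14 genes was 3011, from 1427 to 6218, beside a median of 2607 over all bound protein-coding genes. In the stronger 3466 peaks, which are 1 in 2 of the IDR list, lay the summits of 8 of the 14 (57.1%), beside 1952 of 3122 bound genes (62.5%). Counted over all genes and not only the bound ones, 8 of 32 synthetase genes had a summit of this stronger set, beside 9.77% of protein-coding genes. The share of synthetase genes bound was thus above the background, while their median rank was weaker than that of all bound genes. Median ranks were 2967.5 for the 6 mitochondrial and 3348 for the 6 cytosolic genes, and the ranges of 1427 to 6218 and 1432 to 5462 overlapped almost wholly.

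**Figure D1:**
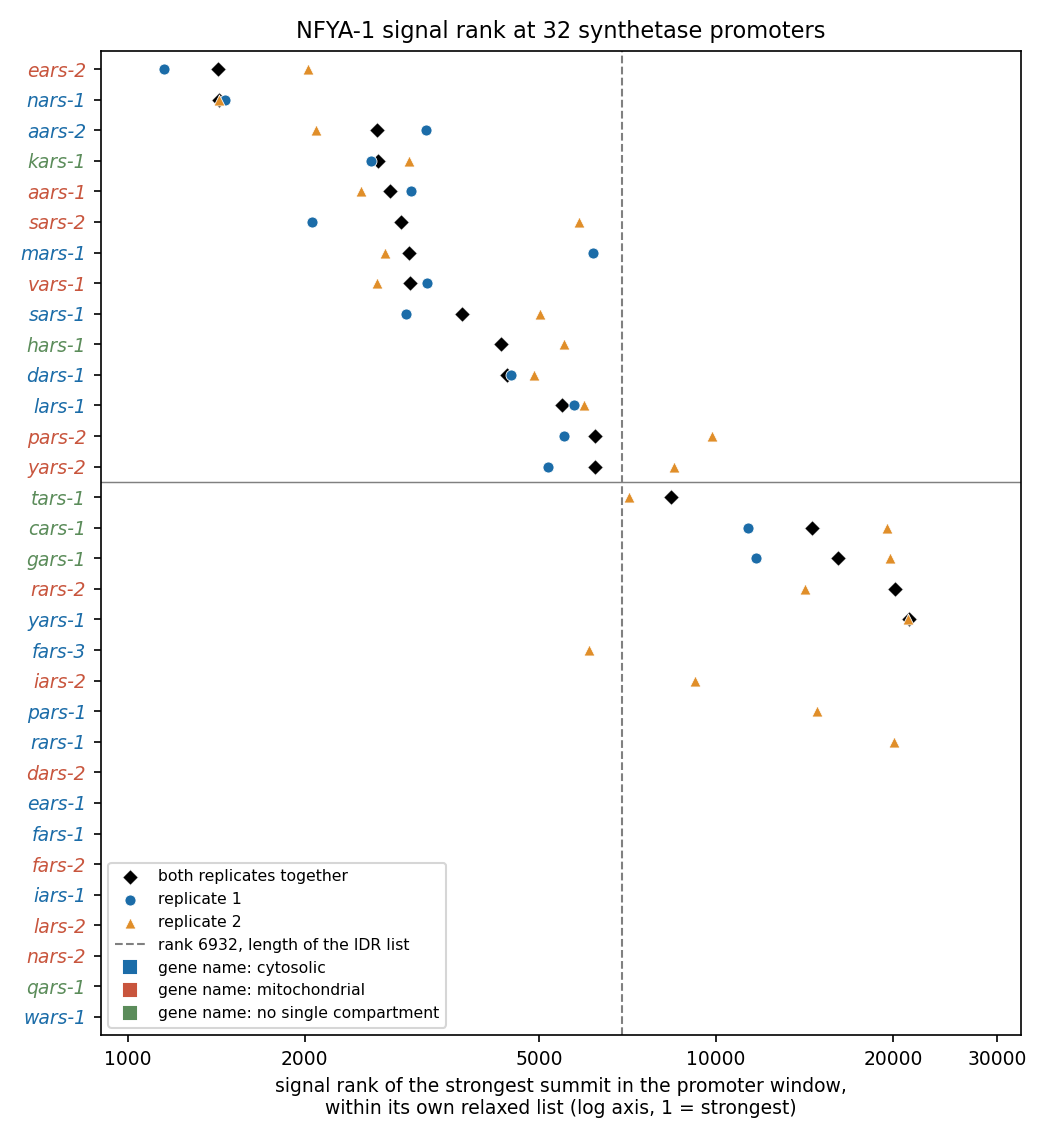
Rank of the strongest NFYA-1 summit in the promoter window of each of the 32 synthetase genes, on a log axis with 1 as the strongest, in the list called on both replicates together (diamonds), in replicate 1 (circles) and in replicate 2 (triangles). The 14 genes above the horizontal line were bound, with ranks from 1427 to 6218 in the joint list, 9 genes have no symbol because no list held a region in their window, and the dashed line stands at rank 6932, the length of the IDR list.

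For 11 amino acids the family holds both a cytosolic and a mitochondrial gene. Both were bound for alanine and serine. The cytosolic gene alone was bound for asparagine, aspartate and leucine, and the mitochondrial gene alone for glutamate, proline and tyrosine. Neither was bound for arginine, isoleucine and phenylalanine, where the cytosolic enzyme has a subunit from each of fars-1 and fars-3. Thus 2 amino acids had both genes bound, 3 the cytosolic, 3 the mitochondrial and 3 neither.

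All 14 summits lay upstream of the annotated start and in intergenic DNA, with 1 IDR summit in each window. Over all bound protein-coding genes, 2893 of 3122 (92.7%) had their strongest summit upstream. The synthetase summits stood a median of 152 bp upstream (1 to 431 bp), beside 172 bp for all bound genes. Of the 14 peaks, 8 had the width of 356 bp that 4192 of the 6932 IDR peaks (60.5%) share, and in 4190 of these 4192 the summit is the centre of the region to within 1 bp, so positions are less exact for them.

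The mitochondrial genes had summits nearer to the start than the cytosolic ones. Their distances upstream were 1 bp at pars-2, 17 bp at ears-2, 25 bp at yars-2, 63 bp at vars-1, 144 bp at sars-2 and 168 bp at aars-1. The cytosolic distances were 93 bp at dars-1, 160 bp at sars-1, 251 bp at aars-2, 258 bp at lars-1, 329 bp at mars-1 and 334 bp at nars-1. Medians were 44 and 254.5 bp, and the ranges overlapped between 93 and 168 bp. The other bound genes were at 107 bp (hars-1) and 431 bp (kars-1). In a narrower window, reaching 200 bp upstream and 100 bp downstream, 9 of the 32 genes were bound beside a background of 8.61%. All 6 mitochondrial genes and 2 of the 6 cytosolic ones stayed bound, which follows from the distances above and is no further evidence. In a wider one, reaching 1000 bp upstream and 500 bp downstream, 19 were bound beside 20.1%, among them 9 cytosolic and 6 mitochondrial genes. The gap to the upstream gene differed as well. At the 6 bound mitochondrial genes it ran from 91 bp (ears-2) to 708 bp (pars-2). At the 6 bound cytosolic genes it ran from 180 bp (dars-1) to 3644 bp (aars-2). Its part in the summit distances was not tested. Genes are not replicates of a condition, and the difference in summit distance was not tested.

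**Figure D2:**
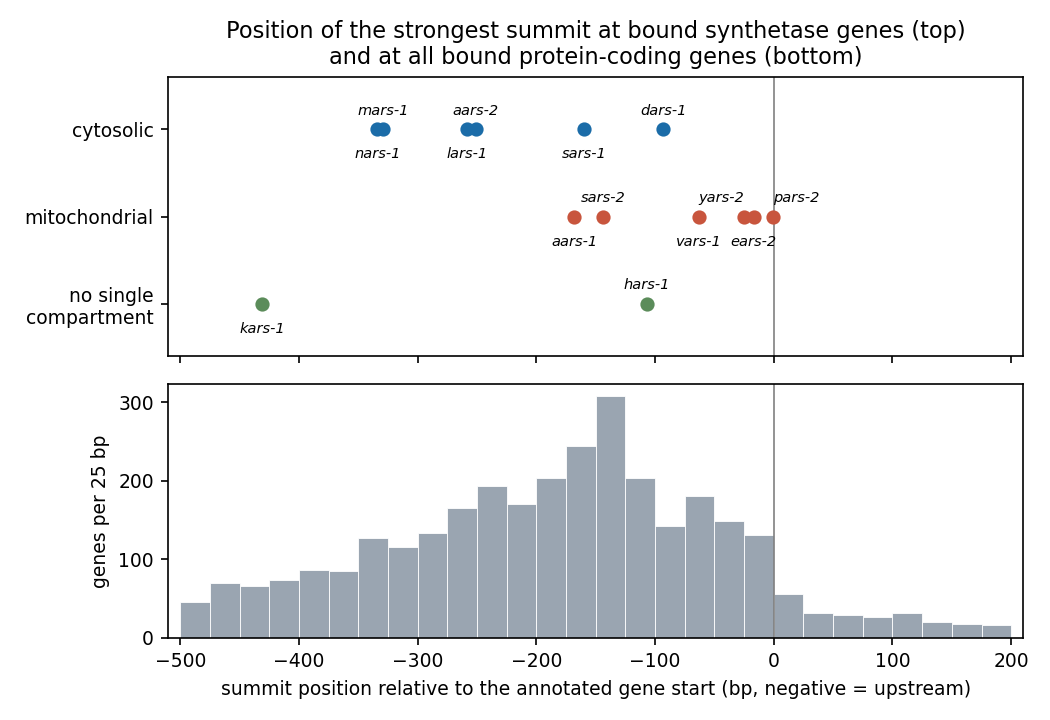
Distance of the strongest summit from the annotated gene start in bp, negative upstream, for each of the 14 bound synthetase genes by class (top) and as a histogram in 25 bp bins for all 3122 bound protein-coding genes (bottom). The 6 mitochondrial genes lie from 168 to 1 bp upstream and the 6 cytosolic genes from 334 to 93 bp upstream.

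Few of these summits held a CCAAT box. CCAAT was found on either strand within 50 bp of the summit at 3 of 14 bound synthetase genes (21.4%), beside 484 of 2527 distinct summits of bound protein-coding genes (19.2%). Windows of the same length 300 bp away held it at 18.7% and 18.3% of those 2527 places, so the share at summits was close to that of nearby sequence. Around the synthetase summits, the windows to the lower and higher coordinate held it at 5 and 2 of 14. The longer form RRCCAATSR is an extension of CCAAT in which R stands for A or G, and S for either C or G. It was at 0 of 14, beside 78 of 2527 (3.09%). The windows 300 bp away held this longer form less often, at 1.11% and 0.673% of the 2527 places.

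All 3 genes with CCAAT were mitochondrial: vars-1, where its centre lay 3 bp from the summit, sars-2 at 25 bp and yars-2 at 43 bp. None of the 6 cytosolic summits had it within 50 bp, but within 100 bp it was at 2 of 6 cytosolic and 4 of 6 mitochondrial summits. Counts are small and move with the window: over all 14 summits CCAAT was at 1 within 25 bp and at 6 within 100 bp, where RRCCAATSR was at 2. A match describes the letters and does not show a site in use.

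GAGAGA, on either strand, was within 50 bp at 2 of 14 summits (14.3%), beside 633 of 2527. These were hars-1, where its centre lay 4.5 bp from the summit, and aars-1 at 19.5 bp. CGTCTC, on either strand, was at 0 of 14 within 50 bp and within 100 bp, beside 486 of 2527 (19.2%) and 25.8%. At the 2527 places, the windows 300 bp away held GAGAGA at 4.67% and 4.91% and CGTCTC at 2.1% and 2.97%. Around the synthetase summits, such windows held GAGAGA at 1 and 2 of 14 and CGTCTC at 0. Among all 6-mers, chosen after their values were seen, the most frequent at the synthetase summits were TGAAAA and ATTTTC, each at 7 of 14 counting both strands, beside 16.5% and 19.6% of the 2527. The summits of aars-1, sars-2 and pars-2 lay within 100 bp of a run of 20 bp that also occurs near another IDR summit. The share over all IDR summits is not given here, so these 3 of 14 cannot be called many or few.

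Bound shares varied with the arrangement of the neighbouring genes. A gene was called divergent when the nearest protein-coding gene upstream lay on the other strand with its start within 1000 bp, and close same-strand when that gene lay on the same strand and ended within 500 bp of the start. Of 12 divergent synthetase genes 7 were bound (58.3%), beside 36% of such protein-coding genes. Of 9 with neither arrangement 5 were bound (55.6%), beside 11.4%. Of 11 with a close same-strand neighbour 2 were bound (18.2%), beside 10.2%. Leaving out the close same-strand genes, 12 of 21 synthetase genes were bound (57.1%), beside 17% of the 15970 protein-coding genes of that kind.

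**Figure D3:**
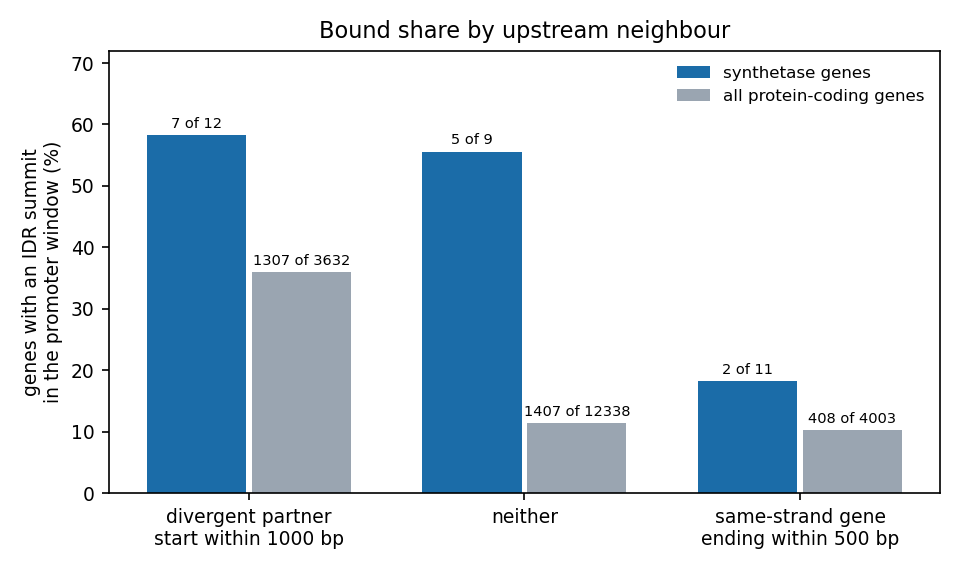
Share of genes with an IDR summit in the promoter window, in percent, by the arrangement of the upstream neighbour, for synthetase genes (blue) and for all protein-coding genes (grey), with counts above the bars. Synthetase genes reach 58.3% and 55.6% where no same-strand gene ends close by, and 18.2% where one does.

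At 6 of the 14 genes (42.9%) the summit fell in the promoter window of a divergent neighbour as well. These peaks cannot be assigned to the synthetase gene alone. The like share over all bound protein-coding genes is not given here. Their strongest summits were 2527 distinct ones for 3122 genes, so shared summits are not particular to this family. The summit of ears-2 lay 17 bp from its own start and 75 bp from that of uncp-18, whose RefSeq product is a syntaxin-binding protein. The starts of nars-1 and nduf-6, a predicted subunit of mitochondrial complex I, were 678 bp apart, with the summit 334 and 344 bp away. At hars-1 these distances were 107 bp, and 354 bp to T11G6.2. The neighbour's start was the nearer at dars-1, with ctr-9 at 88 bp against 93 bp, and at sars-1, with C47E12.2 at 64 bp against 160 bp. Between sars-2 and its divergent neighbour W03B1.9 lay 656 bp, and the summit was in the window of sars-2 only.

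The close same-strand arrangement was the commonest among the mitochondrial genes, with 7 of 12, against 3 of 14 cytosolic genes. Over all protein-coding genes it was found at 4003 of 19973. The 2 bound synthetase genes of this kind were vars-1, 196 bp downstream of oma-2, and yars-2, 200 bp downstream of miro-1. The other 9 were dars-2, fars-3, gars-1, iars-2, lars-2, nars-2, rars-1, rars-2 and yars-1, with gaps of at most 335 bp to the gene before them, and an overlap at iars-2. Such spacing occurs in operons, but operon membership was not used here.

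Of these 9 genes, 6 (66.7%) had a bound gene further upstream in the same unbroken run of close same-strand genes, beside 1183 of 3595 unbound protein-coding genes in such runs (32.9%). The share depends on which upstream gene is counted. The immediate neighbour was bound at 4 of the 9 (44.4%), beside 23.6% of the 3595, and the first gene of the run also at 4 (44.4%), beside 29.4%. For lars-2 this was its neighbour ZK524.4, with rank 2114. For rars-1 it was rpb-8, a predicted shared subunit of the RNA polymerases, with rank 1988 and the summit 962 bp from the start of rars-1. For fars-3 it was zyg-9, with rank 4288. For dars-2 the bound gene was F10C2.4 (rank 1308) and for nars-2 it was Y66D12A.21 (rank 3233), each with an unbound gene between. For yars-1 it was Y105E8A.20 (rank 2112), a gene that RefSeq names mars-2.

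Several unbound genes, gars-1 of the 9 above among them, had an IDR summit outside the window but within 1000 bp of the start. The nearest was at cars-1, the cysteinyl enzyme, 247 bp downstream of the start (rank 5164). At qars-1, the glutaminyl enzyme, a summit lay 557 bp upstream (rank 6457) and at iars-1, the cytosolic isoleucyl enzyme, 565 bp upstream (rank 3991). Both were in the window of the divergent neighbour, Y41E3.7 and pges-2. A summit at fars-1 lay 899 bp upstream (rank 1131), a higher rank than that of any bound synthetase gene. At gars-1 (rank 4490) and tars-1 (rank 3910), the glycyl and threonyl enzymes, summits lay inside the gene, 621 and 985 bp downstream of the start.

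The annotated start itself decided 2 of these calls. RefSeq places the start of tars-1 1364 bp and that of cars-1 465 bp downstream of the Ensembl start, and with RefSeq starts both were bound, giving 16 of 32 beside 15.6% of 19962 genes. This comparison was added after the data were seen. The RefSeq starts of fars-1, rars-1 and iars-1 differed by 99, 60 and 6 bp, which changed no call.

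Weaker regions, from the relaxed lists of 30000 regions each, were present at 9 of the 18 unbound genes. The other 9 (50%) had none in any list, beside 12258 of the 16851 unbound protein-coding genes (72.7%). The list called on both replicates held one at 5: tars-1 with signal 42.2 (rank 8384), cars-1 with 21.7 (rank 14574), gars-1 with 19.3 (rank 16101), rars-2 with 14.8 (rank 20120) and yars-1 with 13.8 (rank 21264). A further 4, fars-3, iars-2, pars-1 and rars-1, had a region in replicate 2 only, the strongest at fars-3 with signal 28.9 and rank 6078, 147 bp upstream. No list held a region in the window of dars-2, ears-1, fars-1, fars-2, iars-1, lars-2, nars-2, qars-1 or wars-1. Of the 18 unbound synthetase genes, 5 (27.8%) thus had a region of the joint list, beside 17.2% of the 16851 unbound protein-coding genes. A replicate region without one of the joint list lay at 4 (22.2%), beside 10.1%. A replicate 1 region lay at 2 of the 18, beside 17.9%, and a replicate 2 region at 9, beside 18.7%.

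Most of the bound genes were found in both replicates. The IDR list was made from these replicate lists by their agreement, so this was largely fixed in advance. Over all bound protein-coding genes, 1.79% had no replicate 1 region in the window and 0.929% no replicate 2 region. A region lay in the window in both replicate lists at 13 of the 14, and 11 (78.6%) were among the strongest 6932 regions of each, beside 2706 of 3122 bound genes (86.7%). The signal of ears-2 was 155.2 in replicate 1 and 82.1 in replicate 2, with ranks 1154 and 2027, and signals are set side by side only through ranks because the lists have their own scales. At nars-1 the signals were 135.7 and 103.1, with ranks 1465 and 1429. These were the 2 highest synthetase ranks in each replicate. The gene kars-1 had ranks 2594 and 3003. The alanine genes stood higher in replicate 2, with 3215 and 2094 at aars-2 and 3033 and 2497 at aars-1, as did vars-1 with 3230 and 2658. Serine genes stood higher in replicate 1, with 2976 and 5016 at sars-1 and 2055 and 5846 at sars-2, the largest ratio of ranks at 2.84. The ranks of dars-1 were 4490 and 4898, and those of lars-1 were 5743 and 5957. Across these 13 genes the rank was better in replicate 1 at 8 and in replicate 2 at 5, and the Spearman correlation of the replicate ranks was 0.549, as a description over genes that share the same libraries.

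The 3 genes outside the top of both lists were hars-1, pars-2 and yars-2. At hars-1 replicate 1 held no region in the window, and replicate 2 had one of rank 5521 and signal 32.1. Such a lack in replicate 1 occurred at 56 of 3122 bound genes (1.79%). The ranks of pars-2 were 5515 and 9848, the largest gap at 4333 places, and those of yars-2 were 5183 and 8476. The summits of mars-1, with ranks 6178 and 2737, lay 149 bp apart in the replicates, those of lars-1 104 bp and those of kars-1 85 bp. At the other 10 genes with both regions they lay within 36 bp of each other.

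Of a hand-made list of 26 other genes, of translation elongation, RNA modification and ligation, the amino acid response and nuclear transport, 15 were bound (57.7%), beside 15.6% of all protein-coding genes, at a median rank of 747 (38 to 3634), above the median of 3011 of the synthetase genes. The strongest coded for translation elongation factors, which bring charged transfer RNA to the ribosome or move it along: eef-1A.1 had rank 38, eef-2 64 and eef-1A.2 111. Ranks above that of ears-2 were also held by the exchange factor subunits eef-1G (218), eef-1B.1 (555) and eef-1B.2 (1085), the mitochondrial factor tufm-1 (747), and ran-1 (514) and imb-1 (608) of nuclear transport. The stress genes gcn-1, an activator of the kinase that senses uncharged transfer RNA, and atf-4, a transcription factor of the amino acid response, had ranks 1618 and 1848. The kinase gene gcn-2 was not bound. Of the RNA modification genes, nsun-1 and nsun-5, which are known to methylate ribosomal RNA, had ranks 2549 and 3634, and elpc-2, of the Elongator complex that modifies transfer RNA, had rank 2669. In this group alkb-8, elpc-1, elpc-3, elpc-4, mttu-1, nsun-2, nsun-4 and tut-1 were not bound. Another mitochondrial elongation factor gene, tufm-2, had rank 3014. The ligase gene rtcb-1 and the exportin gene xpo-1 were not bound.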

How the data were processed

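ChIP-seq of tagged NFYA-1 was available from 2 libraries of 1 group. The authors deposited peak lists on ce11 with a signal value and a −log10 q value per region. Per the file descriptions deposited with them, each relaxed list was called on 1 replicate or both against a control, and these 3 lists were the input of the IDR list. The aligner, caller, settings and depth, not given in the sources used here, are unknown, so no interval for counting error is given. The deposited −log10 q value was the same for every IDR peak and gave no ranking. Signal was used only as rank or value within a list, and the joint list's top regions by signal are the IDR peaks. The ce10 lists were not used.

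Gene starts are from Ensembl release 115, and sequence is from the RefSeq WBcel235 genome. Where several summits lay in a window the strongest was used. The members, lists and tests were chosen with earlier results of these data known. By the rule for named genes every member is accounted for, and the 6 strongest and 3 weakest bound genes, the 3 unbound genes with the strongest relaxed region and the gene whose replicate ranks differ most are given in full. Sequences are from the 8 strongest bound genes outside chromosome I, with yars-2 added. Alternatives varied the window, the start, the stringency, the overlap, the motif distance and the depth of the replicate lists, and left out each replicate by using the strongest 6932 regions of the other. The RefSeq start was added after seeing the data. The tools were matplotlib 3.10.9, scipy 1.17.1, pandas 2.3.3 and numpy 2.4.6 under Python 3.11.15. The scoring of summits and motifs was tested on simulated data.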

Additional observations from a re-analysis of the deposited data

How the results depend on the processing

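The number of bound synthetase genes was 9 in the narrow window (200 bp upstream, 100 bp downstream) and 8 in the stronger 3466 IDR peaks, when all protein-coding genes gave 1719 and 1952. It was 19 in the wide window (1000 bp upstream, 500 bp downstream), beside 20.1% of all protein-coding genes. Any overlap of the peak with the window gave 17, beside 17.3%. The start of any transcript and the RefSeq start each gave 16, beside 17.1% and 15.6%. Leaving out either replicate gave 13 of 32. Without replicate 2, hars-1 was lost, and the share of all protein-coding genes was 15.5%. Without replicate 1, pars-2 and yars-2 were lost and fars-3 was gained, beside 15.9%. Cytosolic genes fell to 2 in the narrow window and 3 in the stronger peaks. They rose to 9 in the wide window and to 7 with overlap and without replicate 1. The mitochondrial count stayed from 4 to 6 throughout. Genes not assigned to a single compartment numbered 1 in the narrow window and in the stronger peaks, 4 with the wide window, with any transcript start, with overlap and with RefSeq starts, and 1 to 2 without a replicate. The other listed genes numbered 9 in the narrow window. The median summit offset was -93 bp in the narrow and -168 bp in the wide window, -164 bp with any transcript start or RefSeq starts, -209.5 bp in the stronger peaks and -173 to -161 bp without a replicate. The median rank was 3693 in the narrow window, 3356 with any transcript start or RefSeq starts, 2731 in the stronger peaks and 3003 to 3215 without a replicate. CCAAT was at 6 summits within 100 bp and 1 within 25 bp, RRCCAATSR at 2 within 100 bp, and GAGAGA at 1 to 2 without a replicate. Among the strongest 3466 regions of both replicates stood 6 genes. Why these values moved was not tested beyond the construction of each setting. Of 98 ranks of single genes under the alternatives, 88 were unchanged or within 1 SD of the replicates and 10 moved further. Changes of window, start, overlap or stringency kept the same IDR peak and so its rank. All 10 moves came from leaving out a replicate, so the count of 88 does not measure stability. No paired analysis was possible because there is 1 group and nothing is compared between groups.

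With 2 libraries of unknown depth, the absence of a region at a gene means only that none was listed among 30000 regions. No comparison had a control group, and expression in these animals was not measured here.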

Other observations

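A further 2 synthetase genes carry other names and so are not among the 32. They were chosen after their values were seen. Y105E8A.20, which RefSeq names mars-2, had an IDR summit 12 bp upstream of its start with signal 183.5 and rank 2112, and GAGAGA lay within 50 bp. Its replicate ranks were 2054 and 2326. The summit of glp-4, which codes for the cytosolic valyl enzyme and is known for its temperature-sensitive germline allele, lay 446 bp upstream with signal 130.6 and rank 3191. Replicate 1 placed it at rank 2793, and replicate 2 held no region in its window.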
